A study of Drosophila melanogaster with 11 samples.

Results

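Spliceosomal small nuclear RNA (snRNA) genes were followed copy by copy in RNA-seq libraries of Drosophila melanogaster embryos at zygotic genome activation. The members are all genes whose FlyBase symbol starts with snRNA:, 31 of the 17753 genes in the count table. They are 5 U1, 6 U2, 3 U4, 7 U5 and 3 U6 copies, 4 RNAs of the minor spliceosome (U11, U12, U4atac and U6atac) and 3 others (7SKa, U7 and LU). DomKD embryos (4 libraries, genotype t216) came from mothers expressing an shRNA against domino in the germline under mat-alpha-Gal4, and Ctrl embryos (3 libraries, numbered 2, 3 and 4, genotype t180) came from mothers of the matching control line, both collected at stage 5. Ctrl unfertilized eggs (4 libraries, genotype t180) hold what the mother deposits. Each knockdown library comes from the same DomKD genotype, and no DomKD eggs were analysed here, so an effect of the knockdown and a difference between the lines that was there before it cannot be told apart. The labels do not say whether libraries of a group come from separate collections, and the p-values then measure only the spread between these libraries.

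Introns are removed by the spliceosome, whose RNA core is made of snRNAs. U1 pairs with the start of an intron and U2 with its branch point, after which U4, U5 and U6 join as a tri-snRNP; U11, U12, U4atac and U6atac take the places of U1, U2, U4 and U6 on a rare class of introns, and U5 serves both machines. In flies several near-identical gene copies encode each major snRNA, RNA polymerase II transcribes most snRNA genes and RNA polymerase III those of U6, U6atac and 7SK, and the embryo inherits snRNAs from the egg. domino encodes the ATPase of a chromatin remodeler that deposits the histone variant H2A.Z.

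The libraries held 11809453 to 17700171 counts on genes, of which the snRNA genes took 0.361% to 0.592%. The targeted gene dom averaged 76.9 ± 21.4 CPM (counts scaled to the normalized library size; SD, n = 4) in DomKD embryos and 1921 ± 64.4 CPM (n = 3) in Ctrl embryos, a log2 fold change of -4.66 (SE 0.18, edgeR adjusted p = 1.24e-06). Of 10 listed names of stage 5 zygotic genes, 9 matched a gene, and all 9 were higher in Ctrl embryos than in eggs. The 10 follicle cell genes summed to at most 1.01 CPM in any library. The zygotic genes summed to 2782, 3696 and 4213 CPM in Ctrl embryo libraries 2, 3 and 4 and to 3825 to 5558 CPM in DomKD embryos. Maternal transcripts, 7 found of 9 listed names, summed to 4923, 4350 and 3776 CPM in these Ctrl libraries and to 3920 to 4873 CPM in DomKD embryos. The 10 genes of later stages and differentiated cells summed to 7.01 to 11.3 CPM in DomKD embryos and to 6.64 to 7.77 CPM in Ctrl embryos. Only 1 of them was tested, Obp99a, which was higher in DomKD embryos (log2 fold change 0.65, SE 0.18, edgeR adjusted p = 0.0285). Whether the embryo libraries differ in exact stage was not tested. In RNA of whole embryos, fewer cells of a type and less RNA per cell cannot be told apart.

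The 31 genes are short, 71 to 444 nt, and many lie close together. In all, 19 of them lie in 6 groups of neighbouring copies, each chained by gaps under 40 kb. At 34AB on chromosome arm 2L, 3 U2 copies and U5:34A span 33050 nt (dm6, positions 13211925 to 13244974), and at 38AB, also on 2L, 5 copies of U2, U4 and U5 span 5807 nt within introns of sick (positions 19810734 to 19816540). On the X chromosome, U2:14B and U5:14B lie 555 nt apart. In all, 17 members overlap another counted gene, of which 15 lie only within its introns and 2, U2:34ABc and U4:25F, overlap an exon of a non-coding gene on the opposite strand. The authors ran their mapping pipeline with default parameters. How reads that match several copies were handled is not spelled out in the sources used here, so the level of a copy is the level of the reads assigned to it.

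The copies differed widely in level. Per length, 7SKa, which scaffolds the particle that holds the elongation factor P-TEFb inactive, was first in every group, at 13631 ± 952 TPM (counts scaled to gene length and library; SD, n = 4) in DomKD embryos, at 15579 ± 878 TPM in the 3 Ctrl embryo libraries and at 10711 ± 283 TPM in the 4 egg libraries. U11, U12 and U4:39B followed at 1435 to 4124 TPM as group means, joined in Ctrl embryos and eggs by U2:34ABa. In Ctrl embryos the levels of U11 (4124 ± 518 TPM), U4:39B (3172 ± 1181 TPM), U2:34ABa (2804 ± 463 TPM) and U12 (2324 ± 448 TPM) lay within the spread of their neighbours in this order. The leading U1 copy, U1:95Cc, lay at 585 ± 62.8 TPM in DomKD embryos and at 755 ± 208 TPM in Ctrl embryos, while eggs had 896 ± 120 TPM.

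At the low end, no U6 copy exceeded 5 counts in any library, U7, which acts on the ends of histone mRNAs, did not exceed 6, and U5:35D did not exceed 7. The most abundant U6 copy, U6:96Ab, had 1, 2, 5 and 2 counts in the DomKD libraries, 1, 2 and 5 counts in the Ctrl embryo libraries and 2, 1, 2 and 0 counts in the egg libraries. At these counts the U6 copies could not be compared. Across the 31 genes, longer genes had higher levels, with Spearman's rho between TPM and length of 0.55 in DomKD embryos, 0.53 in Ctrl embryos and 0.52 in eggs, over genes that share libraries and library preparation.

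**Figure D1:**
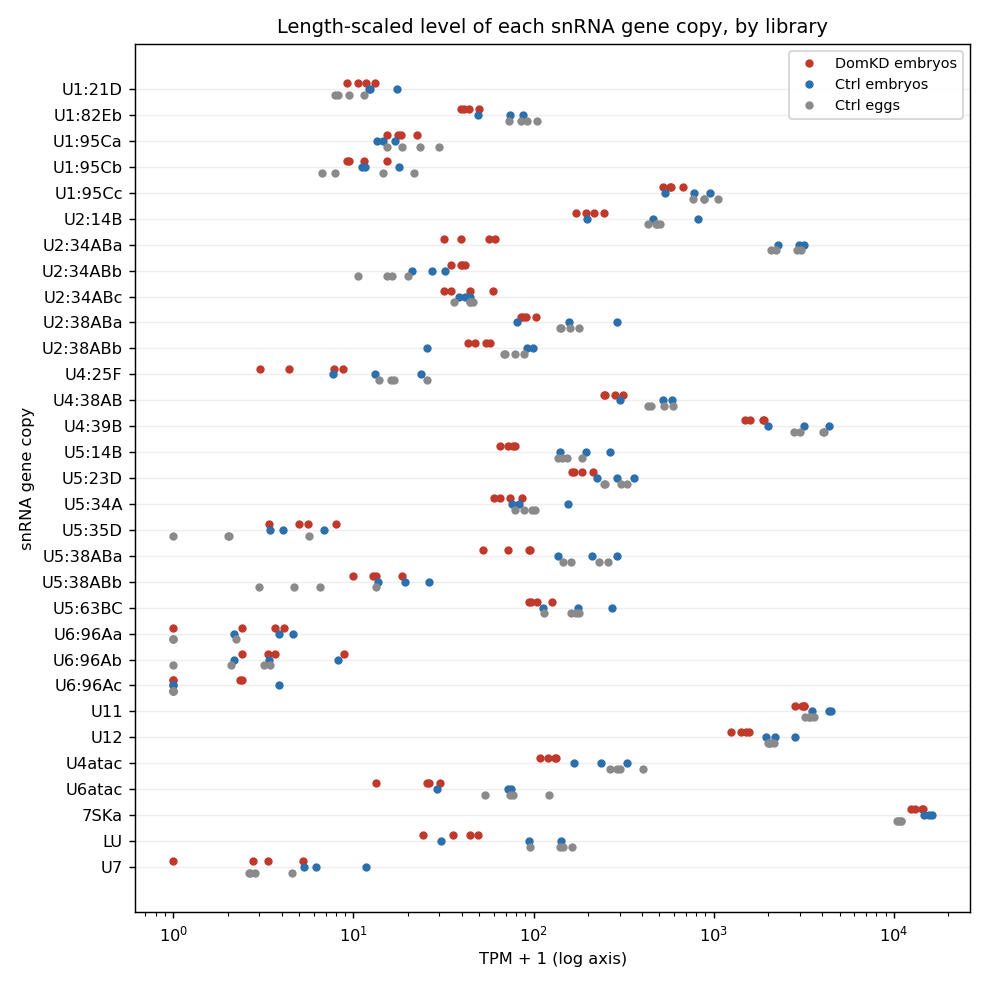
Level of each of the 31 snRNA gene copies in TPM + 1 on a log axis, 1 point per library, with DomKD embryos above Ctrl embryos above Ctrl eggs in each row. U2:34ABa lies at 46.3 TPM on average in DomKD embryos and at 2804 TPM in Ctrl embryos, and most other copies differ far less between groups.

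DomKD embryos were compared with Ctrl embryos to ask which copies change when the mother is depleted of domino. The change that stood out was in U2:34ABa, the main U2 copy (FBgn0004191, chromosome arm 2L, positions 13211925 to 13212116, minus strand, dm6). It had 6.41, 3.89, 5.68 and 3.02 CPM in the DomKD libraries, against 210, 301 and 311 CPM in Ctrl embryo libraries 2, 3 and 4. The eggs held 194, 289, 270 and 206 CPM. Every DomKD library lay below every Ctrl embryo and egg library, which overlapped each other. The underlying counts were 77, 59, 64 and 41 in DomKD embryos and 3541, 4456 and 3959 in Ctrl embryos. The log2 fold change was -5.88 (SE 0.22, edgeR adjusted p = 1.24e-06), 58.9-fold lower in DomKD embryos and the second lowest among the 7727 genes tested. It was called in all 15 alternative fits, with log2 fold changes of -6.05 to -5.50.

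The other U2 copies differed far less. U2:14B had 23.0, 19.4, 25 and 16.9 CPM in DomKD embryos and 18.1, 83.2 and 45.3 CPM in Ctrl embryos, so Ctrl library 2 lay within the DomKD range (log2 fold change -1.22, SE 0.39, edgeR adjusted p = 0.0455). U2:38ABa had 10.9, 8.44, 9.14 and 8.47 CPM in DomKD embryos and 7.36, 29.5 and 15.4 CPM in Ctrl embryos, and U2:38ABb had 4.91, 4.22, 5.41 and 5.52 CPM in DomKD embryos and 2.25, 9.19 and 9.65 CPM in Ctrl embryos. Neither of these 38AB copies passed the test, with edgeR adjusted p = 0.0934 and 0.409. The nearest U2 copies to U2:34ABa were also not called. U2:34ABb, singled out here after its values were seen, had 4.33, 3.89, 3.99 and 3.31 CPM in DomKD embryos and 1.84, 3.18 and 2.59 CPM in Ctrl embryos, higher in each DomKD library than in any Ctrl embryo library (log2 fold change 0.61, SE 0.23, edgeR adjusted p = 0.0756). U2:34ABc averaged 4.27 ± 1.43 CPM in DomKD embryos and 3.92 ± 0.28 CPM in Ctrl embryos.

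**Figure D2:**
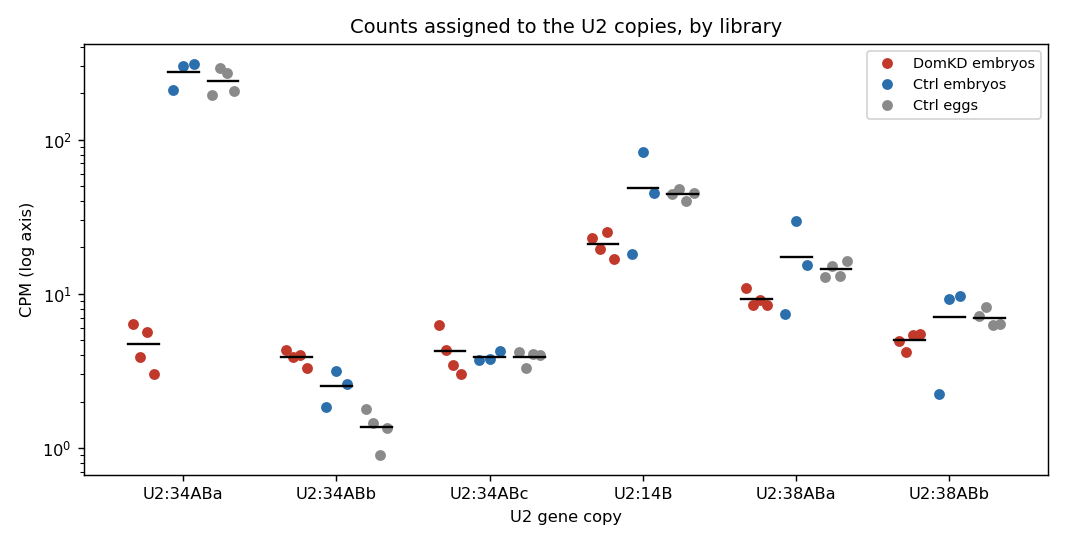
CPM of the 6 U2 copies on a log axis, 1 point per library with the group mean as a bar, for DomKD embryos, Ctrl embryos and Ctrl eggs. Only for U2:34ABa are the DomKD libraries, at 3.02 to 6.41 CPM, far below both other groups.

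The make-up of the counted U2 RNA differed accordingly. U2:34ABa held 9.64 ± 1.82% of U2 counts in DomKD embryos (SD, n = 4), 78.8 ± 8.22% in Ctrl embryos (n = 3) and 76.8 ± 3.79% in eggs (n = 4). U2:14B held 43.6 ± 2.81% in DomKD embryos, 12.8 ± 6.04% in Ctrl embryos and 14.5 ± 2.35% in eggs, and was the leading U2 copy in every DomKD library. Summed over all 6 copies, U2 stood at 48.2 ± 7.25 CPM in DomKD embryos, 354 ± 97.9 CPM in Ctrl embryos and 310 ± 47.1 CPM in eggs. Without U2:34ABa the sum was 43.5 ± 5.69 CPM in DomKD embryos and 79.8 ± 47.8 CPM in Ctrl embryos, and these 2 groups overlapped. Reads shared between near-identical copies may have been counted once, several times or not at all, so these sums are of assigned reads and not of U2 RNA.

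Around U2:34ABa, within 10 kb, lie 7 other genes that are not snRNA genes, of which 6 were tested and 0 were called in the edgeR fit, also at an unadjusted p under 0.05, with log2 fold changes of -0.20 to 0.29. The closest, CG15482, 111 nt away, averaged 38.8 counts in DomKD embryos and 36.0 counts in Ctrl embryos. The next, kek4, 219 nt away, averaged 10 counts in DomKD embryos and 2.33 counts in Ctrl embryos and was too low to test.

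Of the 25 snRNA genes tested between DomKD and Ctrl embryos, 11 were lower and 0 higher at an edgeR adjusted p under 0.05, beside 15.5% of all tested genes lower and 10.6% higher. At an unadjusted edgeR p under 0.05 there were 15 lower and 1 higher, and DESeq2 called 13 lower and 0 higher. The median log2 fold change was -0.65 over the snRNA genes and 0.003 over all tested genes. The normalization assumes that most genes do not change, so the median over all genes is no independent baseline. With library size alone these medians were -0.7 and -0.055. The groups did not overlap for 5 copies lower in DomKD embryos and 1 higher, beside 17.9% and 17.0% of all tested genes. The 6 genes too low to test were the 3 U6 copies, U4:25F, U5:35D and U7. Apart from U2:34ABa, the lower copies were U2:14B, U4:39B, U4:38AB, U5:14B, U5:38ABa, U5:23D and all 4 minor spliceosome RNAs, none of which changed by more than 2.68-fold.

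Among them, 2 U5 copies changed most. U5:14B, the neighbour of U2:14B on the X chromosome, had 4.33, 3.69, 4.53 and 4.27 CPM in DomKD embryos and 7.36, 15.3 and 10.9 CPM in Ctrl embryos (log2 fold change -1.42, SE 0.24, edgeR adjusted p = 0.00256). U5:38ABa had 5, 3.43, 6.39 and 6.11 CPM in DomKD embryos and 8.25, 19.4 and 13.7 CPM in Ctrl embryos (log2 fold change -1.41, SE 0.30, edgeR adjusted p = 0.00762). For both copies each DomKD library lay below each Ctrl embryo library. Their share of U5 counts was lower too, 12.1 ± 0.93% in DomKD embryos and 17.4 ± 0.17% in Ctrl embryos for U5:14B, and 14.9 ± 2.86% in DomKD embryos and 21.2 ± 1.28% in Ctrl embryos for U5:38ABa. The leading copy, U5:23D, which lies in an intron of FASN2, had 11.8, 11.4, 12.8 and 14.4 CPM in DomKD embryos and 14, 24.8 and 19.5 CPM in Ctrl embryos, with Ctrl library 2 inside the DomKD range (log2 fold change -0.63, SE 0.19, edgeR adjusted p = 0.0326). U5:63BC, U5:34A and U5:38ABb were not called, at -0.79, -0.52 and -0.49 on the log2 scale.

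U4 was led by U4:39B, in an intron of Atg18b, which had 118, 119, 142 and 139 CPM in DomKD embryos and 137, 329 and 232 CPM in Ctrl embryos (log2 fold change -0.85, SE 0.23, edgeR adjusted p = 0.0232). U4:38AB had 19.5, 18.2, 21.3 and 22.8 CPM in DomKD embryos and 20.5, 43.6 and 37.7 CPM in Ctrl embryos (log2 fold change -0.74, SE 0.22, edgeR adjusted p = 0.0352). For both, Ctrl library 2 lay among the DomKD libraries and libraries 3 and 4 above them. The division of U4 counts hardly moved, with U4:39B at 86.1 ± 0.58% in DomKD embryos, 86.7 ± 1.3% in Ctrl embryos and 87.1 ± 0.88% in eggs. U1 behaved alike in this respect, with U1:95Cc at 87.8 ± 1.19% of U1 counts in DomKD embryos, 87.3 ± 0.97% in Ctrl embryos and 87.5 ± 1.03% in eggs. No U1 copy was called, and U1:95Cc itself had 52.0, 44.7, 58.5 and 48.5 CPM in DomKD embryos and 42.2, 82.2 and 65.4 CPM in Ctrl embryos.

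**Figure D3:**
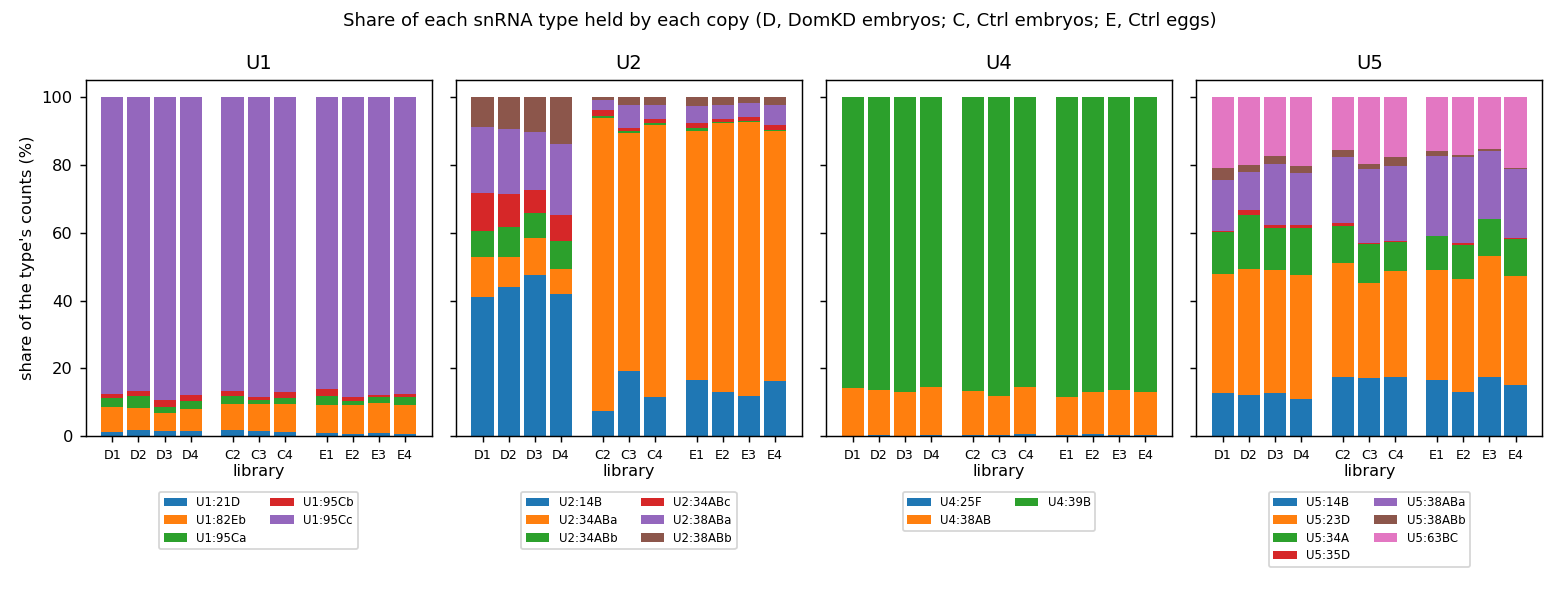
Share of the counts of U1, U2, U4 and U5 held by each copy in percent, 1 stacked bar per library, with DomKD embryos (D) left of Ctrl embryos (C) and Ctrl eggs (E). U2 is the type whose division differs most, with U2:34ABa at 7.51% to 11.5% in DomKD embryos and at 70% to 86.3% in Ctrl embryos.

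The 4 minor spliceosome RNAs were all called lower. U12, the branch point RNA of the minor machine, had 188, 155, 199 and 184 CPM in DomKD embryos and 223, 354 and 268 CPM in Ctrl embryos (log2 fold change -0.65, SE 0.14, edgeR adjusted p = 0.00946). U4atac had 11.5, 8.96, 10.1 and 10.9 CPM in DomKD embryos and 12.8, 27.8 and 19.4 CPM in Ctrl embryos (log2 fold change -0.96, SE 0.23, edgeR adjusted p = 0.0146). For these 2 RNAs the groups did not overlap. U11, the counterpart of U1, had 473, 404, 466 and 446 CPM in DomKD embryos and 466, 653 and 611 CPM in Ctrl embryos (log2 fold change -0.38, SE 0.11, edgeR adjusted p = 0.0297). U6atac was low, at 0.67, 1.25, 1.51 and 1.25 CPM in DomKD embryos and 1.31, 3.78 and 3.53 CPM in Ctrl embryos (log2 fold change -1.28, SE 0.40, edgeR adjusted p = 0.0408). In both of these, Ctrl library 2 lay within the DomKD range. The genes whose introns hold U12, U4atac and U4:39B were not called in the edgeR fit, Baldspot at 0.29, cno at 0.24 and Atg18b at -0.13 on the log2 scale.

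Of the 2 other RNAs that could be tested, 7SKa had 3578, 2908, 3374 and 2999 CPM in DomKD embryos and 3344, 3839 and 3329 CPM in Ctrl embryos, with overlap and no call (log2 fold change -0.14, SE 0.09, edgeR adjusted p = 0.27). LU, in the same FASN2 gene as U5:23D, had 1.5, 2.11, 2.66 and 2.87 CPM in DomKD embryos and 1.66, 8.65 and 5.57 CPM in Ctrl embryos. LU was not called (log2 fold change -1.21, SE 0.47, edgeR adjusted p = 0.0855).

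Of the 10 calls other than U2:34ABa, those of U5:14B, U5:38ABa, U12 and U4atac were kept when any single Ctrl embryo library was left out. The remaining calls depended on which Ctrl embryo libraries were used. Against Ctrl library 2 alone, the mean of the DomKD libraries had a median log2 ratio of -0.01 over the 25 tested snRNA genes, with 13 lower and 12 higher. Against library 3 the median was -0.97, with 21 lower, and against library 4 it was -0.67, with 23 lower. U2:34ABa stood at -5.38, -5.89 and -5.94 against libraries 2, 3 and 4, on a log2 scale of CPM + 0.5. In edgeR fits that left out library 3 or library 4, 5 copies were lower (U2:34ABa, U5:14B, U5:38ABa, U12 and U4atac), and without library 3 U2:34ABb was also called higher. Without library 2 there were 17 lower. Leaving out DomKD libraries 1, 2, 3 and 4 in turn gave 6, 5, 7 and 8 lower copies. When libraries 3 and 4 were both left out, an alternative added after the data were seen, U2:34ABa was the only copy called, and U5:14B reached an edgeR adjusted p of 0.0624 with a log2 fold change of -0.82. That fit rests on a single Ctrl library whose spread is assumed to match the others.

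**Figure D4:**
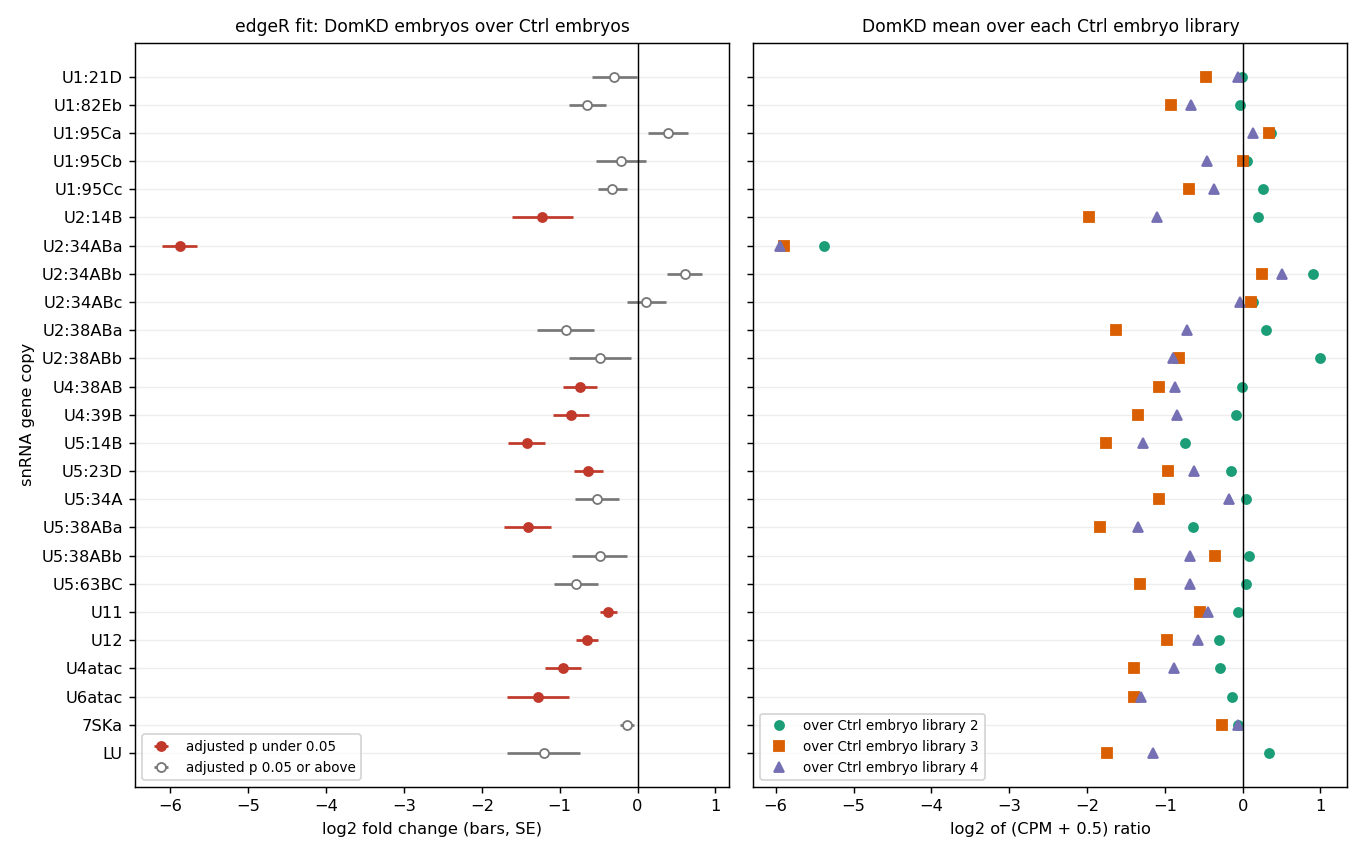
Left, log2 fold change of DomKD over Ctrl embryos with its SE for the 25 tested snRNA genes from the edgeR fit, filled where the adjusted p was under 0.05. Right, log2 ratio of the DomKD mean to each Ctrl embryo library, where ratios to library 2 centre on -0.01 and those to libraries 3 and 4 on -0.97 and -0.67, while U2:34ABa stays below -5 for all of them.

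Several other classes of short non-coding RNA also differed between the Ctrl embryo libraries. Small nucleolar RNAs (243 genes), which guide the modification of ribosomal RNA, summed to 1744 to 1993 CPM in DomKD embryos and to 1835, 2823 and 2567 CPM in Ctrl embryo libraries 2, 3 and 4. The 2 genes of 7SL, the RNA of the signal recognition particle, summed to 14.7 to 21.8 CPM in DomKD embryos and to 14.7, 96.4 and 86.0 CPM in these Ctrl libraries. The snRNA genes without U2:34ABa and 7SKa summed to 832 to 990 CPM in DomKD embryos and to 987, 1732 and 1394 CPM in Ctrl embryos. Small Cajal body RNAs (15 genes), which guide the modification of snRNAs, summed to 49.2 to 60.5 CPM in DomKD embryos and to 74.9, 96.8 and 81.4 CPM in Ctrl embryos, and here library 2 was above the DomKD range too. The RNA of RNase MRP did not set library 2 apart, with 2287 to 2549 CPM in DomKD embryos and 2628, 2790 and 2624 CPM in Ctrl embryos. The RNA of RNase P had 702 to 753 CPM in DomKD embryos and 735, 885 and 795 CPM in Ctrl embryos, and neither of these RNAs was called in the edgeR fit. Between DomKD and Ctrl embryos, 39 of 108 tested small nucleolar RNA genes were lower and 2 higher in the edgeR fit, beside 15.5% and 10.6% of all tested genes. Of the 124 tested genes under 200 nt that are not snRNA genes, 47 were lower and 2 higher, with a median log2 fold change of -0.75, while the 130 of 300 to 500 nt had a median of 0.01. Among the snRNA genes themselves, the shorter the gene, the lower its log2 fold change tended to be (Spearman's rho 0.44 over 25 genes that share the same libraries). What part this difference in other short RNA has in the snRNA result was not tested.

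**Figure D5:**
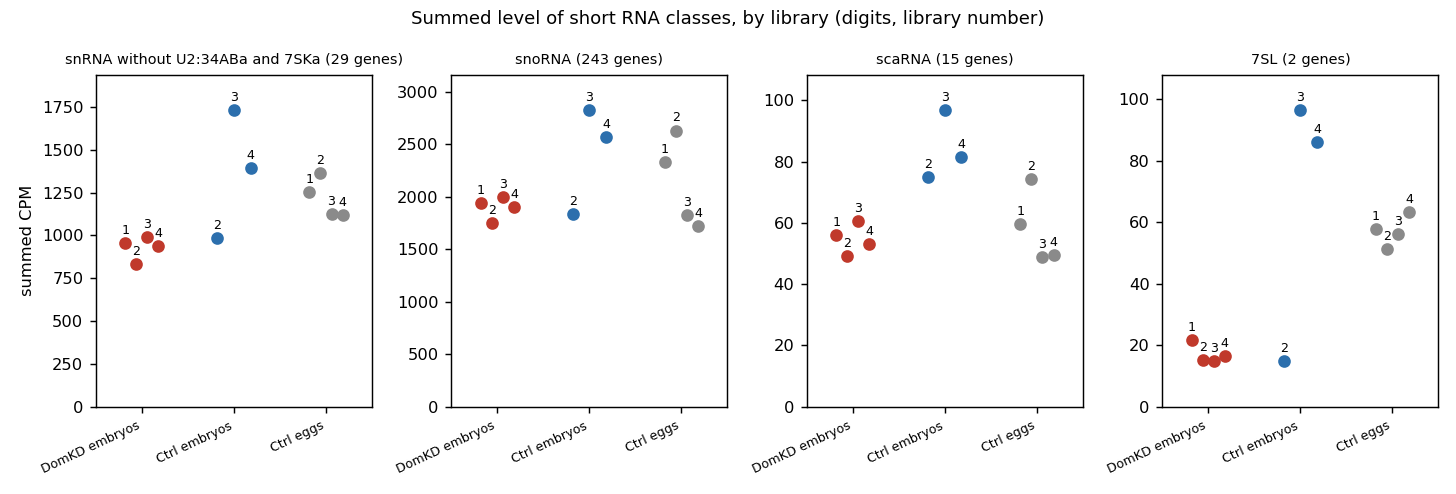
Summed CPM of 4 classes of short RNA, 1 point per library with its library number, for DomKD embryos, Ctrl embryos and Ctrl eggs, with axes starting at 0. In the snRNA, small nucleolar RNA and 7SL panels Ctrl embryo libraries 3 and 4 lie above the DomKD libraries, and library 2 lies within or at the edge of their range.

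Ctrl embryos were set beside eggs to ask which copies gain RNA between the maternal deposit and genome activation. Of 26 snRNA genes tested, 5 were higher in Ctrl embryos and 0 lower in the edgeR fit, beside 46.6% of all tested genes higher and 39.2% lower, and the medians were 0.14 for the snRNA genes and 0.137 for all tested genes. At an unadjusted edgeR p under 0.05 there were also 5 higher and 0 lower, and DESeq2 called 4 higher and 0 lower. The groups did not overlap for 4 copies, all higher, beside 46.0% of all genes. 7SKa rose in every embryo library, with 3344, 3839 and 3329 CPM in Ctrl embryos and 2227, 2407, 2278 and 2347 CPM in eggs (log2 fold change 0.60, SE 0.06, edgeR adjusted p = 3.52e-06). It was called in all 15 alternatives of this comparison, with log2 fold changes of 0.49 to 0.67. The RNAs of RNase MRP and RNase P were also called higher in Ctrl embryos in the edgeR fit, at 0.55 and 0.41 on the log2 scale. Of 114 tested small nucleolar RNA genes, 29 were higher and 0 lower, beside 46.6% and 39.2% of all tested genes.

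U11 had 466, 653 and 611 CPM in Ctrl embryos and 457, 493, 452 and 428 CPM in eggs (log2 fold change 0.34, SE 0.10, edgeR adjusted p = 0.0105), with library 2 among the eggs. The other 3 higher copies were low ones. U5:38ABb had 13, 18 and 21 counts in Ctrl embryos and 12, 6, 4 and 2 counts in eggs. It passed the filter of 10 counts on average only through the embryo libraries, and was tested in 11 of the 15 alternatives. Its calls are therefore no independent support. U5:38ABb averaged 1.21 ± 0.44 CPM in Ctrl embryos and 0.36 ± 0.28 CPM in eggs, the largest change of the 5 (log2 fold change 1.71, SE 0.51, edgeR adjusted p = 0.00885), U2:34ABb averaged 2.53 ± 0.67 CPM in Ctrl embryos and 1.37 ± 0.36 CPM in eggs, and U1:21D averaged 1.08 ± 0.29 CPM in Ctrl embryos and 0.66 ± 0.12 CPM in eggs. U2:34ABa was not called, at 0.20 on the log2 scale (SE 0.17, edgeR adjusted p = 0.286). Here too the count moved with the Ctrl libraries used. Without library 2 there were 11 higher copies, without library 3 there were 2 higher (7SKa and U11) and 2 lower (LU and U4atac), and with libraries 3 and 4 both left out there were 10 lower and 1 higher, 7SKa. This last fit sets a single Ctrl embryo library against 4 egg libraries, so its spread comes from the eggs alone and its counts describe that library.

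DomKD embryos were also set beside the Ctrl eggs, a comparison in which maternal genotype and stage differ at once. It shares its DomKD libraries with the first comparison and its egg libraries with the second. Of 25 snRNA genes tested, 17 were lower in DomKD embryos and 2 higher in the edgeR fit, beside 41.4% and 47.2% of all tested genes, with a median log2 fold change of -0.53 against 0.11 for all tested genes. The groups did not overlap for 16 copies lower and 2 higher, beside 39.7% and 46.0% of all tested genes. U2:34ABa was again the largest change of any snRNA gene (log2 fold change -5.70, SE 0.21, edgeR adjusted p = 3.08e-10), 52.0-fold lower in DomKD embryos.

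The 2 higher RNAs were 7SKa (log2 fold change 0.45, SE 0.06, edgeR adjusted p = 3.29e-05) and U2:34ABb, which averaged 3.88 ± 0.42 CPM in DomKD embryos and 1.37 ± 0.36 CPM in eggs (log2 fold change 1.48, SE 0.22, edgeR adjusted p = 5.1e-05). After U2:34ABa the lower copies were led by LU, which had 1.5, 2.11, 2.66 and 2.87 CPM in DomKD embryos and 8.11, 9.32, 7.86 and 5.3 CPM in eggs (log2 fold change -1.76, SE 0.23, edgeR adjusted p = 2.37e-05). The low copies U6atac and U4:25F were lower by 1.72 and 1.62 on the log2 scale as fitted differences, and the egg libraries held 3.55, 5.83, 2.47 and 3.41 CPM of U6atac. U4:25F had 2, 8, 3 and 8 counts in DomKD embryos and 17, 31, 20 and 15 counts in eggs. It passed the filter of 10 counts on average only through the egg libraries. U4:25F is included in the counts of lower and of not overlapping copies above, but its call is no independent support. U4atac had 23.4, 31.9, 22.5 and 20.4 CPM in eggs, all above its DomKD values, a log2 fold change of -1.27 (SE 0.15, edgeR adjusted p = 7.51e-06). U2:14B had 44.1, 47.5, 39.8 and 45.1 CPM in eggs, also all above its DomKD values (log2 fold change -1.09, SE 0.11, edgeR adjusted p = 2.11e-06). For U5:38ABa the eggs held 14.1, 16.2, 8.87 and 9.81 CPM and for U5:14B 9.83, 8.27, 7.64 and 7.25 CPM, above every DomKD library, and these copies were called at -1.26 and -0.99 on the log2 scale.

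The remaining called copies changed less. U4:38AB had 36.3, 41.8, 29.4 and 30.5 CPM and U5:23D had 19.3, 21.3, 15.7 and 15.5 CPM in eggs, and every DomKD library lay below these. U4:39B had 282, 287, 192 and 208 CPM in eggs, U1:95Cc had 52.0, 44.7, 58.5 and 48.5 CPM in DomKD embryos and 70.2, 85.5, 70.1 and 60.5 CPM in eggs, and U12 had 233, 255, 230 and 235 CPM in eggs. All 3 RNAs were called lower, by 0.92, 0.52 and 0.41 on the log2 scale as fitted differences, and their DomKD libraries lay below all egg libraries. U1:82Eb had 4.41, 3.43, 3.37 and 3.61 CPM in DomKD embryos and 6.66, 8.33, 7.19 and 5.73 CPM in eggs. U2:38ABa had 12.9, 15.1, 13.1 and 16.4 CPM in eggs, and U2:38ABb had 7.23, 8.27, 6.23 and 6.34 CPM there. These 3 copies were also called and did not overlap. U5:63BC was the called copy whose groups overlapped, with 7.08, 6.13, 6.12 and 7.95 CPM in DomKD embryos and 9.57, 10.8, 6.74 and 10.1 CPM in eggs. U11 was not called, at -0.05 on the log2 scale (SE 0.06, edgeR adjusted p = 0.449). 7SL summed to 14.7 to 21.8 CPM in DomKD embryos and to 51.2 to 63.3 CPM in eggs, and 52 of 104 tested small nucleolar RNA genes were lower and 6 higher, beside 41.4% and 47.2% of all tested genes. The RNAs of RNase MRP and RNase P were called higher in DomKD embryos than in eggs in the edgeR fit, at 0.36 and 0.25 on the log2 scale. What part these differences have in the snRNA result was not tested either.

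Genes for proteins that pack, transcribe and process snRNAs were also compared between DomKD and Ctrl embryos, in lists chosen with earlier results of these data known. Names that matched no gene were left out, so the lists are not complete. These were 8 of 21 names for Sm and LSm proteins and 7 of 20 for snRNP proteins. For transcription factors they were 2 of 15, for Integrator 4 of 17 and for assembly, capping and transport 3 of 19. The counts of calls in the lists stand beside 15.5% of all tested genes lower and 10.6% higher. Of 12 tested Sm and LSm genes, whose proteins form the rings around snRNAs, 1 was called, lower. It was CG9344, at 1.52 ± 0.20 CPM in DomKD embryos and 2.45 ± 0.37 CPM in Ctrl embryos (SE 0.23 on the log2 scale, edgeR adjusted p = 0.0473). Eggs held 24.7 ± 0.61 CPM of CG9344, above both embryo groups. Of 13 tested genes in a list of mainly snRNP proteins outside these rings, 1 was called, lower. It was U2A, a protein of the U2 snRNP, at 1.74 ± 0.64 CPM in DomKD embryos, 5.93 ± 0.93 CPM in Ctrl embryos and 52.6 ± 2.33 CPM in eggs (log2 fold change between the embryos -1.78, SE 0.26, edgeR adjusted p = 0.00146). Of 12 tested factors of snRNA transcription, 1 was called, higher, and of 13 tested Integrator genes, whose complex cuts the 3′ ends of snRNA precursors, 2 were lower and 1 higher. IntS1, the largest Integrator subunit, had the largest change among them, at 13.8 ± 2.47 CPM in DomKD embryos and 37.6 ± 6.35 CPM in Ctrl embryos (log2 fold change -1.46, SE 0.16, edgeR adjusted p = 0.000364). Eggs held 261 ± 20 CPM of IntS1, also above both embryo groups. Of 13 tested genes of snRNP assembly, capping and transport, 2 were called, both lower. The larger change was that of Gem4c, from the family of the assembly factor Gemin4. Gem4c averaged 0.28 ± 0.09 CPM in DomKD embryos and 1.63 ± 0.74 CPM in Ctrl embryos (log2 fold change -2.47, SE 0.44, edgeR adjusted p = 0.00367). It passed the filter on average counts only through the Ctrl embryo libraries. Gem4c is included in the 2 calls, but its call is no independent support. The median log2 fold changes lay between -0.06 and 0.04 in all 5 lists, beside 0.003 over all tested genes.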

How the data were processed

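Total RNA libraries were made with a strand-specific kit. Trimming and mapping to dm6 were done by the authors in the mRNA-seq workflow of snakePipes with default parameters, and featureCounts assigned reads to genes of Ensembl release 96. The authors deposited these counts unnormalized, with the exon length of each gene. Beyond these defaults, the aligner, the strand setting and the handling of reads that match several places are not spelled out in the sources used here. A further column, 1 in all, matched no listed sample and was used in no step.

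Comparisons used edgeR 4.0.16 in R 4.3.3 (quasi-likelihood, TMM, Benjamini-Hochberg, threshold 0.05) with condition as the only term. Each fit took the libraries of its own groups and only genes averaging 10 counts or more, and p-values were adjusted over all tested genes. The SE is the log2 fold change over the square root of F. CPM and TPM were computed from the counts, and type totals and shares carry no test. Names and positions come from Ensembl release 115. The fit was tested on simulated data. Alternatives covered normalization, DESeq2 1.42.0, filters, libraries in the fit, a replicate block and each library left out. Members, lists and alternatives were chosen with earlier results of these data known. Values by library are printed for copies called with a mean of at least 50 counts and for the most abundant copy of each type, and from the protein lists for called genes that changed most. A further snRNA symbol, 1 in all, was not analysed here. Figures used matplotlib 3.10.9.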

Additional observations from a re-analysis of the deposited data

How the results depend on the processing

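Of 622 values of single snRNA copies under alternatives, 540 kept both sign and call, 53 lost the call, 15 gained 1 and 14 changed sign. The fall of U2:34ABa in DomKD embryos was called in every alternative of both comparisons in which it was called. Between DomKD and Ctrl embryos, leaving out single libraries gave 1292 to 1816 genes called (2015 with all libraries), 5 to 17 snRNA copies lower, 0 to 1 higher, and a median of -0.89 to -0.42. With Ctrl embryo libraries 3 and 4 both left out, 715 genes were called, 1 snRNA copy was lower and the median was -0.02, and U2:14B stood at 0.20, U1:95Cc at 0.25 and LU at 0.45. With a mean of at least 100 counts, which tests fewer genes, 1201 genes were called, and the median was -0.86. Between Ctrl embryos and eggs, leaving out single libraries gave 0 to 2 copies lower, 2 to 11 higher and a median of -0.15 to 0.38, with U4:39B at -0.36 to 0.22, U5:23D at -0.07 to 0.32 and U1:95Cc at -0.38 to 0.06. With these 2 Ctrl libraries left out, a fit of 1 embryo library whose spread comes from the eggs, there were 10 lower, 1 higher and a median of -0.54, with U5:23D at -0.32, U2:34ABa at -0.16 and U12 at -0.06. The filter at 100 counts gave 3 higher with U4:39B at 0.01, and no filter put U5:23D at -0.01. Between DomKD embryos and eggs, the filter at 100 counts gave 11 lower, 1 higher and a median of -0.62, and single libraries left out gave medians of -0.60 to -0.44 and U11 at -0.09 to 0.02. By TPM, U5:23D held 34.7% of U5 in DomKD embryos and 31.8% in eggs. The cause of these shifts was not tested, beyond the smaller number of genes or libraries.

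The labels do not say whether the replicate numbers pair the libraries. Correlations of same-numbered deviations were 0.074, -0.063 and -0.41 between DomKD and Ctrl embryos, too few to settle it. With a replicate block, 1208 genes and 7 snRNA copies lower were called between these groups, with DomKD library 1 adding nothing to the contrast, and the counts of the other comparisons stayed at 5 higher, and at 17 lower with 2 higher. Copies under 10 counts, among them all U6 copies, U7 and U5:35D, were too low to compare. Why their counts were low was not tested.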
